A study of Homo sapiens with 4 samples.

Results

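Cassette exons of 300 nt or more were examined in RNA-seq of HEK293T cells with and without RBFOX2. A cassette exon is one that the spliced transcript either includes, joined to both neighbouring exons, or skips. The exons were chosen by length alone, as the distance between the 2 listed exon ends, and entries with the same chromosome, strand and ends were merged. This gave 1232 long exons of 27483 unique cassette exons, in 1081 of the 9172 gene identifiers of the authors' deposited table. The other 26251 exons were shorter. HEK293T is a line of human embryonic kidney cells. The study used 2 wild-type (WT) clones and 2 RBFOX2 KO clones, in which guides on both sides of RBFOX2 had been introduced with Cas9; the same transfection and sorting protocol is given for all 4. Each clone grew from a single sorted cell, so a genotype is represented by 2 clones only. The libraries were strand-specific and made from total RNA after removal of ribosomal RNA, and the splicing comparison was meant to find exons that depend on RBFOX2. The authors' deposited table compares a first with a second set of libraries, and neither its header nor the labels say which set is WT. Directions below are therefore between sets, not between genotypes. Columns with values per library name only a set number and could not be matched to a clone, so inclusion per clone, its spread and the read depth are not given. No listed event carries the symbol RBFOX2, so the knockout was not checked on its own transcript. Gene expression was not measured in this table, and the cell type was not checked against marker genes.

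Most internal exons of human genes are short, because the spliceosome usually recognises the splice sites of an exon as a pair across it. Long internal exons are unusual and often carry a whole stretch of protein, such as the giant exons of ankyrins, or arise where a neighbouring intron is kept and joins 2 exons into a larger one. Other long exons hold an early stop codon. A transcript that includes such an exon, often called a poison exon, is a target of nonsense-mediated decay (NMD), the pathway that degrades messages with a premature stop. RBFOX2 (named RBM9 in the clone labels) binds RNA at GCATG, written here as DNA, and regulates nearby splice sites.

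Sequences of 3 kinds are printed because the results below turn on them. They come from GENCODE 29 transcripts matched to the listed exons by structure, and their positions are in GRCh38, the build of that annotation. The first kind runs from the first base of the exon to an annotated stop codon, in capitals, for called exons that GENCODE places in NMD transcripts.
POLR2G, chr11:62762542-62762614, plus strand: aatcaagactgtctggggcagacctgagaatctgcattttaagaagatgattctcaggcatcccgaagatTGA
TIAL1, chr10:119580810-119580846, minus strand: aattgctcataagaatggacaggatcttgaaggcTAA
PRPF39, chr14:45096424-45096432, plus strand: gtgcgtTAA
TOR3A, chr1:179082719-179082753, plus strand: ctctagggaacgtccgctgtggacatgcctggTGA
CLK4, chr5:178620565-178620673, minus strand: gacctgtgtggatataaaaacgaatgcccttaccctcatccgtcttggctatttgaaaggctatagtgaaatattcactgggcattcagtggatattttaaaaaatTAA
INO80E, chr16:30001212-30001229, plus strand: gaacggggccaggccTGA

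The second kind lies inside a long exon, at the place where a shorter listed exon begins or ends. Capitals mark bases that the shorter exon shares. Lower case marks bases that only the longer exon holds, so the ag before the capitals is the inner 3′ splice site in ENAH. In FASTK the lower-case stretch is the intron between 2 shorter exons, which the long exon keeps. The last window shows the 3 GCATG elements, in capitals, of the IRF3 exon; IRF3 was singled out after its values were seen.
ENAH, chr1:225517277-225517336, minus strand: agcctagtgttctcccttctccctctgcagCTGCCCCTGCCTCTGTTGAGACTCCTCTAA
FASTK, chr7:151077013-151077115, minus strand: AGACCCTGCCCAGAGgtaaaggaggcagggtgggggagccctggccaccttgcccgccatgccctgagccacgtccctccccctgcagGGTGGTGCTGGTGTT
IRF3, chr19:49662004-49662194, minus strand: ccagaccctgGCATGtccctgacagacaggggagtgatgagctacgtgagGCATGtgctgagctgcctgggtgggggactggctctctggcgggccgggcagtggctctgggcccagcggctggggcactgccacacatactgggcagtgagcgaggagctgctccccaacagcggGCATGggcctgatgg

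Inclusion of 62 long exons differed between the sets, in 61 genes. The inclusion level is the share of transcripts that include the exon, estimated from reads across the exon's junctions and running from 0 to 1. An exon counted as called when at least 1 of its events had a deposited false discovery rate (FDR) under 0.05 and an absolute difference in inclusion of at least 0.1. By this rule 5.03% of the long exons were called (Wilson 95% interval 3.95% to 6.4%, counting error only), beside 5.73% of all unique exons. Counted by event, 63 of 1342 events of long exons were called, beside 1619 of all 31408 events (5.15%) in the authors' deposited table. The long exons were thus called about as often as cassette exons in general. Inclusion was higher in the first set for 32 exons (2.6% of the long exons, beside 3.08% of all exons) and in the second set for 30 (2.44%, beside 2.65%). The first set was therefore higher in 51.6% of the called long exons (39.4% to 63.6%) and in 53.7% of all called exons. The median absolute difference of the called long exons was 0.266, beside 0.271 over all called exons. The absolute difference reached at least 0.5 in 11 of the 62 (17.7%, beside 18.5% of all called exons). An unadjusted p-value under 0.05 was listed for 142 long exons (11.5%, beside 13.1% of all exons). A p-value of 1 in every event was listed for 657 (53.3%, beside 49.4% of all exons). A further 364 long exons had an absolute difference of at least 0.1 without a call. They were 31.1% of the long exons without a call, beside 26.9% of the shorter exons without a call. An FDR under 0.05 with a smaller difference was listed for 11. With no minimum difference 5.93% of the long exons would be called, beside 6.78% of all exons.

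**Figure D1:**
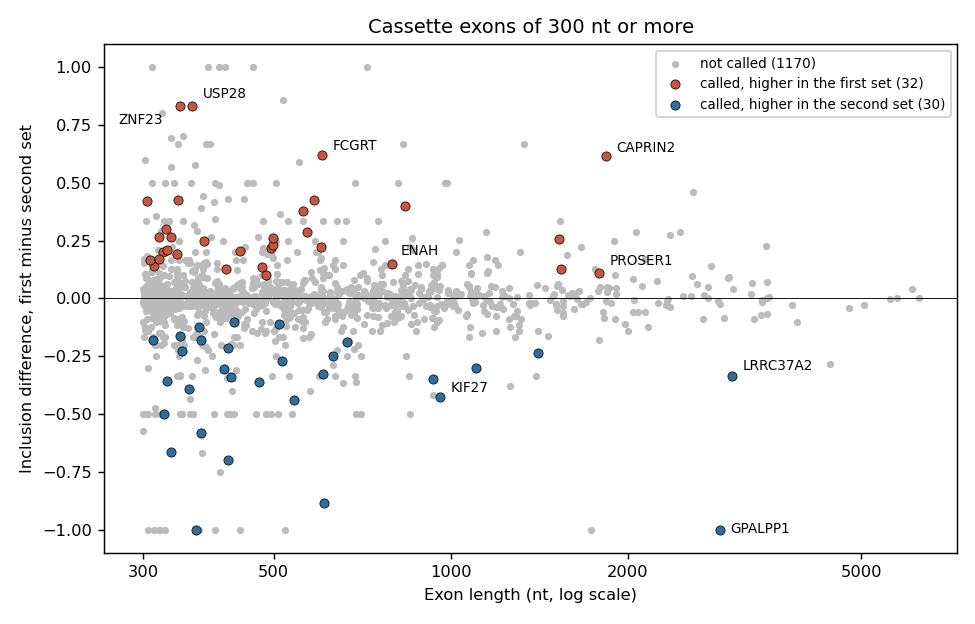
Inclusion difference in the authors' deposited table (vertical axis, first minus second set, no unit) against exon length (horizontal axis, nt, log scale) for the 1232 long exons; each point is an exon, coloured where called. Called exons lie on both sides of 0 at most lengths, and grey points at large differences are exons without a call.

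The lowest p-values belonged to exons of PREPL and ENAH, each listed at 0, below the table's numeric precision. PREPL encodes a hydrolase related to prolyl endopeptidase, and its 542-nt exon (hg19 chr2:44586636-44587177, minus strand) holds an annotated start codon. The authors' deposited table gave it a difference of -0.441, so inclusion was higher in the second set. ENAH encodes an Ena/VASP protein that promotes actin filament growth. For its fully coding 795-nt exon (hg19 chr1:225704898-225705692, minus strand) the authors' deposited table gave 0.15, with higher inclusion in the first set. GPALPP1 had a 2869-nt exon at -1 in the authors' deposited table (FDR 3.44e-07), the largest possible difference. A difference of -1 means that every counted junction read skipped the exon in the first set and included it in the second.

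Within the long exons, the called share did not differ between length classes beyond their intervals. It was 5.91% of 643 exons of 300 to 499 nt (4.34% to 8.01%), 4.06% of 394 exons of 500 to 999 nt (2.51% to 6.49%) and 4.1% of 195 exons of 1000 nt or more (2.09% to 7.89%). Exons of 201 to 299 nt had 5.08%, while the shortest, of 3 to 27 nt, had 10.4% (7.56% to 14.2%). Just inside the limit, 2 of 73 exons of 300 to 309 nt were called. Just outside it, 3 of 79 exons of 290 to 299 nt were called. Inclusion reads of all long exons were scaled to the same effective length, 188 nt against 94 nt for skipping, so the scaling did not vary with length among them.

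**Figure D2:**
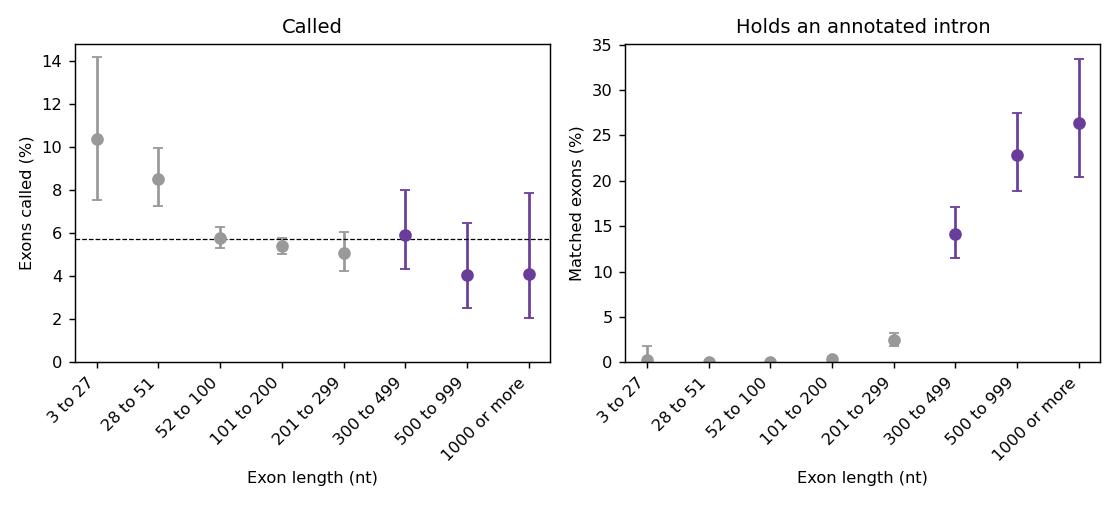
Left, share of unique exons called (%) by exon length (nt), with the share over all exons as a dashed line at 5.73%; right, share of exons matched to GENCODE that hold an annotated intron (%). Points are shares and bars Wilson 95% intervals. Purple marks the classes of 300 nt or more, which are close to the dashed line on the left and above every shorter class on the right. The share on the right already rose below 300 nt, to 2.43% at 201 to 299 nt.

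Long cassette exons differed from shorter ones in what they encode. A GENCODE 29 exon of the same gene, with the same length and the same flanking introns, was found for 1115 long exons (90.5%) and 23670 shorter exons (90.2%). Of these, 40.6% of the long exons lay wholly in coding sequence (37.8% to 43.5%), beside 67.3% of the shorter ones. Each matched exon was put in 1 class. Protein-coding transcripts took precedence over NMD transcripts, and fully coding over start codon. In this classing an annotated start codon marked 20.2% of the long exons (17.9% to 22.6%) and 4.64% of the shorter ones. This contrast did not begin at 300 nt: the share was 9.61% at 201 to 299 nt, 19.7% at 290 to 299 nt (11.9% to 30.8%) and 7.69% at 300 to 309 nt (3.33% to 16.8%). Fully coding were 27 of 66 matched exons of 290 to 299 nt and 32 of 65 of 300 to 309 nt. Exons known only from noncoding transcripts made up 19.3% and 8.58%. Exons with a stop codon inside in an NMD transcript, and no match in a protein-coding one, were a further class. They made up 9.51% of the long exons (7.92% to 11.4%) and 6.42% of the shorter ones. A further 6.64% of the long exons lay in the 5′ UTR, beside 8.01%. The second exon of an annotated transcript was the position of 44.8% of the long exons (41.9% to 47.8%) and 33.3% of the shorter ones, but also of 56.1% at 290 to 299 nt. An intron that other transcripts of the gene remove lay inside 210 long exons, 18.8% (16.6% to 21.2%), and inside 0.401% of the shorter exons. This contrast was not seen at the limit itself. The share was 2.43% at 201 to 299 nt and 7.58% at 290 to 299 nt (3.28% to 16.5%). It was 3.08% at 300 to 309 nt (0.848% to 10.5%) and 14.1% at 300 to 499 nt. A longer exon has more room for an intron or a codon, so these shares are not independent of the length rule. Introns beside the long exons had medians of 2364 nt upstream and 2284 nt downstream, beside 2141 nt and 2005 nt for shorter exons. Median GC content was 52.2% and 50%.

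**Figure D3:**
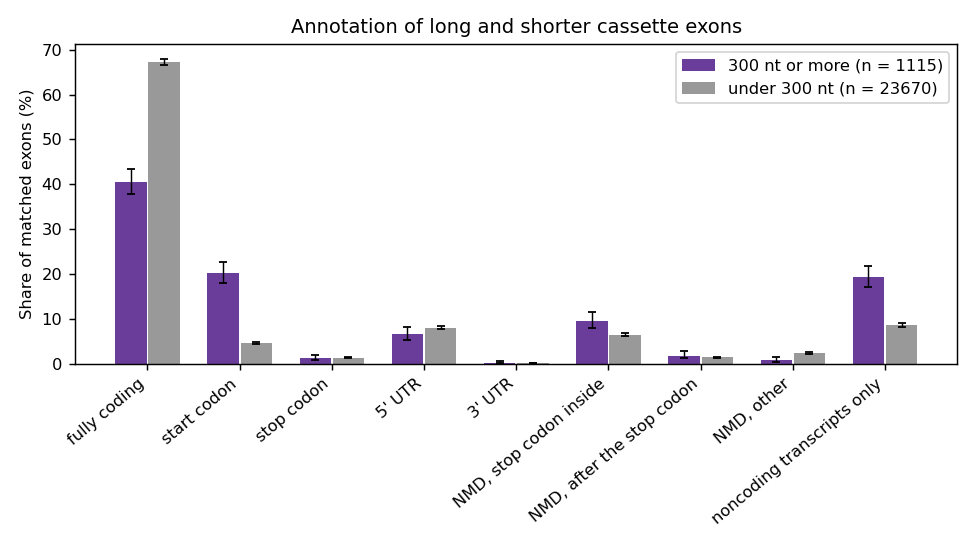
Share of matched exons (%, vertical axis) in each annotation class for exons of 300 nt or more (purple, n = 1115) and under 300 nt (grey, n = 23670), with Wilson 95% intervals as bars. Fully coding exons form 40.6% of the long and 67.3% of the shorter exons; exons with a start codon form 20.2% and 4.64%.

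Among the fully coding long exons, 24 of 453 were called (5.3%, beside 5.07% of shorter coding exons), 12 in each direction. Of those higher in the second set, KIF27 encodes a kinesin, and its 959-nt exon (hg19 chr9:86517975-86518933, minus strand) was at -0.428 in the authors' deposited table (FDR 2.38e-06). The 473-nt exon of ANKMY1 (hg19 chr2:241468454-241468926, minus strand) followed at -0.363 in the authors' deposited table (FDR 6.06e-08). EPB41L1 encodes protein 4.1N, which links membrane proteins to spectrin and actin. Its 411-nt exon (hg19 chr20:34797410-34797820, plus strand) was at -0.307 in the authors' deposited table (FDR 1.62e-06). Others, not named by the rule for lowest p-values, reached as little as -0.1 for SENP6, a protease that removes SUMO. Among them were ALG11 at -0.348, SYDE2 at -0.299, USP45 at -0.188, the mitotic kinesin KIF23 at -0.178, FBXL4 at -0.162 and SAFB2 at -0.11 in the authors' deposited table.

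The 12 coding exons higher in the first set ranged from 0.101 for RRNAD1 (now METTL25B) to 0.286 for TMTC2 in the authors' deposited table. HPS3 encodes a subunit of BLOC-2, a complex for the making of lysosome-related organelles. Its 495-nt exon (hg19 chr3:148857791-148858285, plus strand) was at 0.219 in the authors' deposited table (FDR 2.31e-06). SPEN encodes a large transcriptional repressor, and its 477-nt exon (hg19 chr1:16202697-16203173, plus strand) was at 0.137 in the authors' deposited table (FDR 2.19e-05). BRIP1 encodes a DNA helicase that binds BRCA1; for its 330-nt exon (hg19 chr17:59763197-59763526, minus strand) the authors' deposited table gave 0.209 (FDR 0.0292). The 1786-nt exon of PROSER1 (hg19 chr13:39586828-39588613, minus strand) had 0.111 in the authors' deposited table (FDR 0.000136). The remaining 6, outside the naming rule, were the 1528-nt exon of LRIF1 at 0.257, IRF3 at 0.25, MTERFD2 (now MTERF4) at 0.231, C2CD3 at 0.222, G2E3 at 0.168 and RRNAD1 in the authors' deposited table. IRF3 encodes a transcription factor of the interferon response, and C2CD3 a protein of the centriole.

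Exons that carry the start codon or part of the 5′ UTR were called in 8 of 225 cases (3.56%, beside 6.01% of shorter exons with a start codon) and 7 of 74 cases (9.46%, beside 10.3%). Among exons with a start codon, that of the deubiquitinase USP28 had the largest value in the authors' deposited table, 0.834 (FDR 0.000225), beside -0.441 for PREPL. The DNA helicase DDX11 had 0.425, the transcription factor PLAG1 -0.393, the mitochondrial phosphatase PPM1K 0.26 and the zinc transporter SLC39A7 0.126 in the same deposited table. The 3006-nt exon of LRRC37A2 (hg19 chr17:44589682-44592687, plus strand), the longest called exon, was at -0.334 in the authors' deposited table (FDR 0.0179). LRRC37A2 and DDX11 have near-identical copies in the human genome, so reads at these exons may be divided among copies. SENP5, another SUMO protease, had 0.128 for a 1544-nt exon (hg19 chr3:196612022-196613565, plus strand; FDR 0.00126 in the authors' deposited table). The 5′ UTR exons were those of SLC35E2 at -0.697, FIGNL1 at -0.325, TROVE2 (now RO60) at -0.229, SLC35E2B at -0.215, GTF3C2 at 0.266, IFT88 at 0.3 and MRPL55 at 0.425 in the authors' deposited table. These 2 classes therefore held calls in both directions.

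Stop codons inside an exon of an NMD transcript, with no protein-coding match, were found for 106 long exons. Of these, 10 were called (9.43%, 5.21% to 16.5%). Among shorter exons of this kind 5.66% were called, a share within that interval. Inclusion was higher in the second set for 6 and in the first set for 4. PRPF39 encodes a factor bound to the U1 snRNP, which recognises 5′ splice sites. Its 335-nt exon (hg19 chr14:45565627-45565961, plus strand) was at -0.666 in the authors' deposited table (FDR 1.11e-07), and the stop codon printed above starts after 6 bases. POLR2G encodes a subunit of RNA polymerase II. The authors' deposited table listed its 325-nt exon (hg19 chr11:62530014-62530338, plus strand) at -0.5 (FDR 1.81e-12), and its stop codon follows 70 bases. TIAL1 encodes the RNA-binding splicing regulator TIAR; its 376-nt exon (hg19 chr10:121339983-121340358, minus strand) had -0.18 in the authors' deposited table (FDR 3.94e-09), with the stop codon after 34 bases. The voltage-gated potassium channel gene KCNC4 had -0.584, SNAPC5 -0.271 and NADSYN1 -0.235 in the authors' deposited table. In the other direction, the 304-nt exon of the centriole gene POC1B (hg19 chr12:89890816-89891119, minus strand) had 0.423 in the authors' deposited table (FDR 7.67e-05). CLK4, a kinase that phosphorylates SR splicing factors, had 0.401 for an 836-nt exon, TOR3A 0.266 and the chromatin remodelling subunit gene INO80E 0.17 in the authors' deposited table. Their stop codons follow 106, 32 and 15 bases. Genes of splicing, transcription and chromatin are present among the 10, but no test of their number was made. Inclusion was estimated from spliced reads that remain in the cell, so a change in decay and a change in splicing cannot be told apart.

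The remaining called exons were in noncoding transcripts (7), after the stop codon of an NMD transcript (2) or without a structural match (4). Of the 215 long exons from noncoding transcripts 3.26% were called, beside 6.75% of shorter ones, and 6 of the 7 were higher in the first set. ZNF23, a zinc finger gene, led with 0.834 for a 346-nt exon (hg19 chr16:71495562-71495907, minus strand; FDR 1.09e-06 in the authors' deposited table). FCGRT, the neonatal Fc receptor gene, had 0.619 for a 605-nt exon in the authors' deposited table (FDR 0.00116). The 324-nt FASTK exon (hg19 chr7:150774000-150774323, minus strand) had 0.201 in the authors' deposited table (FDR 3.37e-07). PDCD2L (342 nt, hg19 chr19:34895554-34895895, plus strand) was at 0.19 in the authors' deposited table, and POP4 (313 nt, hg19 chr19:30101227-30101539, plus strand), a subunit gene of RNase P and RNase MRP, at 0.14. FOXRED1 had 0.206 and UBA6-AS1 (now UBA6-DT), the exception in direction, -0.25 in the authors' deposited table. Exons after the stop codon were those of GPALPP1 (hg19 chr13:45603374-45606242, plus strand) at -1 and the RNA-binding protein gene CAPRIN2 (1837 nt, hg19 chr12:30872013-30873849, minus strand) at 0.617 in the authors' deposited table. Unmatched exons were those of RP11-35G9.5 (610 nt, hg19 chr18:55398646-55399255, plus strand) at -0.883, C11orf95 (now ZFTA; 561 nt, hg19 chr11:63531510-63532070, minus strand) at 0.38, a 423-nt exon of FASTK at -0.338 and ESYT2 at -0.122 in the authors' deposited table.

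**Figure D4:**
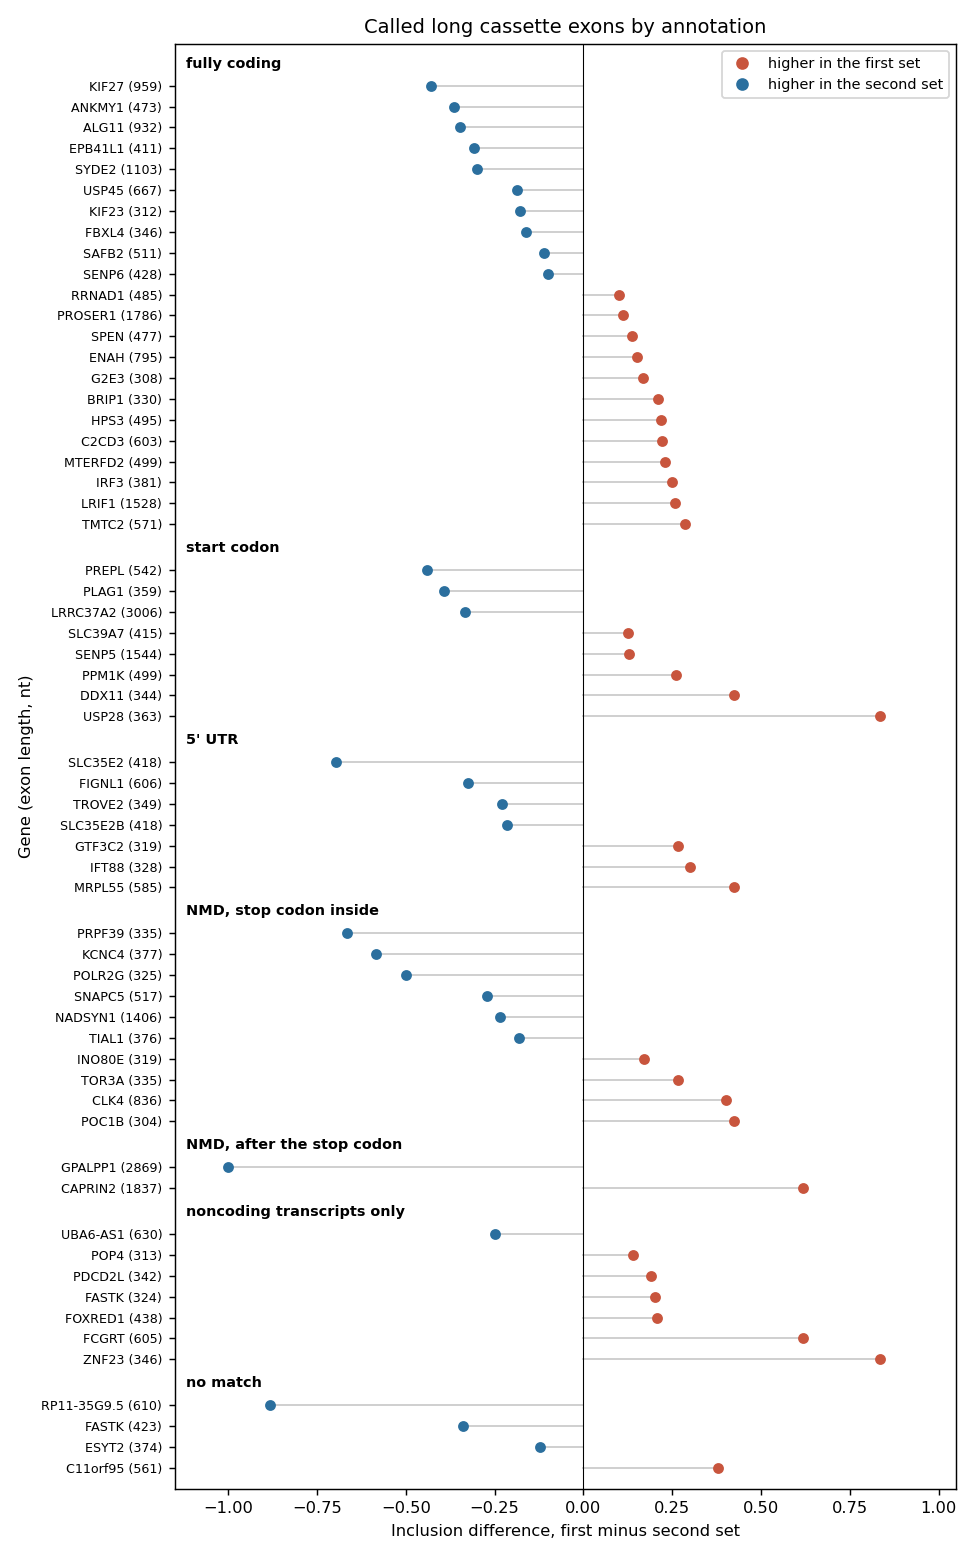
Inclusion difference of 60 of the 62 called long exons in the authors' deposited table (horizontal axis, first minus second set, no unit), grouped by annotation; each point is an exon, labelled by gene and length in nt. Of the coding exons drawn 10 lie left of 0 and 12 right of it. Of the 7 exons from noncoding transcripts 6 lie to the right, a direction that was not tested.

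Long cassette exons frequently shared a splice site with another listed exon, as in the ENAH sequence above. An end was shared by 441 long exons (35.8%), beside 17% of the shorter ones. The nearest shorter exons did so as well, with 26% at 201 to 299 nt and 41.8% at 290 to 299 nt. Among the called long exons 23 of the 62 did so, near the 35.8% of all long exons. They did so with 35 other listed exons, of which 13 were called, beside 5.73% of all exons. The difference had the same sign in 32 of these 35 pairs and the opposite sign in 3. Both exons of a pair draw on the same reads at the common junction, and often on the same skipping reads, so the pairs are not independent measurements. The 795-nt and 111-nt exons of ENAH have a common 3′ end and were listed at 0.15 and 0.09 in the authors' deposited table. In PREPL the 542-nt exon had -0.441 and a 254-nt exon -0.332 in the authors' deposited table. In TIAL1 the 376-nt exon had -0.18 and a 68-nt exon of a noncoding transcript -0.1 in the authors' deposited table. The 3 pairs with opposite signs were a 284-nt exon of USP28 at -0.334, a 69-nt exon of PRPF39 at 0.129 and a 72-nt exon of MRPL55 at -0.059 in the authors' deposited table. None of these 3 shorter exons was called; their p-values in the authors' deposited table were 0.364, 0.12 and 0.343.

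**Figure D5:**
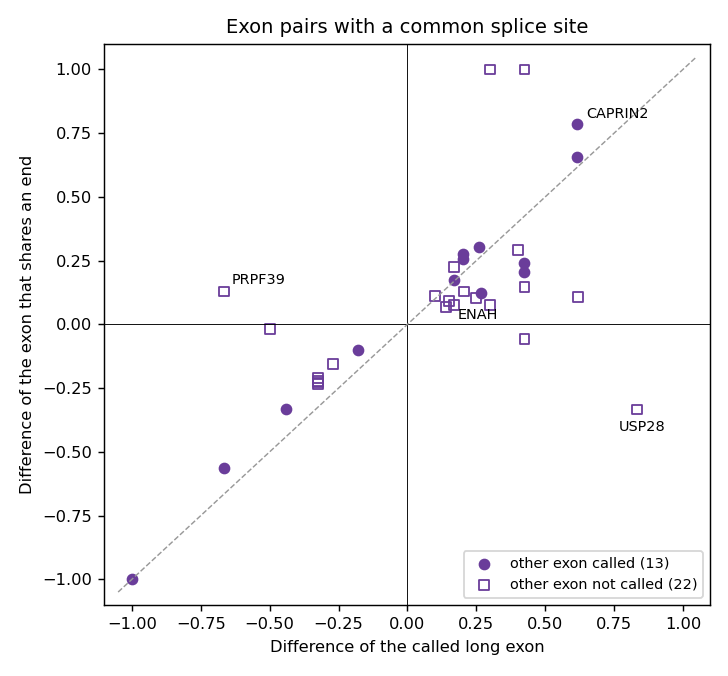
Inclusion difference (first minus second set, no unit) of each called long exon (horizontal axis) and of a listed exon that shares 1 of its ends (vertical axis), for 35 pairs; filled circles are called other exons (13) and open squares other exons without a call (22). Points on the dashed line have equal differences, and 32 of the 35 pairs lie in the quadrants of equal sign.

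A long exon with a shorter listed exon at each end and a stretch between them was found in 119 cases (9.66%). Of these, 5 were called (4.2%, beside 5.73% of all exons), and these 5 exons hold an annotated intron. The stretch had a median of 236 nt over the 119 and was not required to be an annotated intron. In FASTK, a gene named for a Fas-activated kinase, the long exon joins exons of 136 and 115 nt through the 73-nt intron printed above. The authors' deposited table listed 0.201 for the 324-nt exon, 0.257 for the 136-nt and 0.275 for the 115-nt exon, all higher in the first set. CAPRIN2 had 0.617 for the 1837-nt exon, 0.788 for the 147-nt and 0.655 for the 105-nt exon within it, in the authors' deposited table, with 1585 nt between them. In these 2 genes all 3 exons of the locus had a higher inclusion in the first set. In PRPF39 the 335-nt exon spans exons of 69 and 163 nt with 103 nt between; the authors' deposited table gave -0.666 and -0.565 for the 335-nt and 163-nt exons, both called. In IFT88, a gene for transport in cilia, the stretch was 99 nt, and in the mitochondrial ribosome gene MRPL55 it was 57 nt. Only reads across the outer junctions enter the inclusion level of the long form, so reads inside the kept intron were not counted. The shorter exons use the same outer splice sites. These values therefore do not tell a change of the long form from a change of the spliced shorter exons.

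An exon can be listed with several pairs of neighbouring exons, each pair as an event of its own. More than 1 event was listed for 96 long exons and for 10 of the called ones (16.1%, beside 30% of all called exons). Their 12 other events without a call had the sign of the called event in 5 and the opposite sign in 7. The PREPL exon had -0.441 with an upstream intron of 1341 nt and 0.342, with a p-value of 1, when that intron was 1378 nt in the authors' deposited table. The USP28 exon had 0.834 with a downstream intron of 32748 nt and -0.181 (p-value 0.497) with an intron of 20181 nt in the authors' deposited table. The MTERFD2 exon had 0.231 and, with a longer downstream intron, -0.188 in the authors' deposited table (FDR 0.089). The MRPL55 exon was the case with 2 called events, at 0.425 and 0.111 in the authors' deposited table. An exon with several events therefore has several listed differences, and the values above are those of its called event with the lowest p-value. None of the 7 events of opposite sign was called, and their lowest FDR was the 0.089 of MTERFD2. Whether inclusion differed with the neighbouring exons was not tested.

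Genes with a called long exon also had calls among their shorter exons. Of the 51 such genes with listed shorter exons, 24 had a called shorter exon (47.1%), beside 145 of 848 genes whose long exons were not called (17.1%). Counting only shorter exons that do not overlap the called long exon, these were 16 genes (31.4%) and 127 genes (15%). Over all genes with listed shorter exons, 1216 of 8978 had a called shorter exon, overlapping or not. The genes with a long call had a median of 4 listed shorter exons, those whose long exons were not called 3. The part of this in the difference between the shares was not tested, nor was that of read depth. In 8 genes the called long and shorter exons had opposite directions. FCGRT had 0.619 for its 605-nt and -0.625 for a 119-nt exon in the authors' deposited table. FASTK was the gene with 2 called long exons, at 0.201 and -0.338 in the authors' deposited table. The alternative exons of a gene thus did not always move together.

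Counts of calls in gene groups chosen by symbol are given beside shares of 5.03% called and 11.5% at an unadjusted p-value under 0.05 over all long exons (5.73% and 13.1% over all exons). No test of the group counts was made. Known RBFOX target genes had 4 long exons, and the ENAH exon was the only called one. SR protein, TRA2 and hnRNP genes, several of which control their own level through long poison exons, had 5 long exons and no call (1 at an unadjusted p-value under 0.05). The 449-nt exon of SRSF7 had a difference of 0.016 (FDR 0.17) and the 456-nt exon of SRSF3 0.004 (FDR 1) in the authors' deposited table. Of 6 long exons of cytoskeletal linker genes EPB41L1 was called, and of 6 in DNA repair genes BRIP1. Centrosome genes had 6 long exons and no call (0 at an unadjusted p-value under 0.05). Zinc finger genes had 41 long exons in 36 genes, with ZNF23 the only call and 5 at an unadjusted p-value under 0.05, near the shares above. Chromatin genes had 21 and no call (1 at an unadjusted p-value under 0.05, a 513-nt exon of BRD9 at 0.363 in the authors' deposited table, FDR 0.0636). The median difference was -0.0105 for the cytoskeletal and centrosome groups, 0.045 for zinc finger genes and 0.009 for chromatin genes, beside 0.002 over all long exons and 0.004 over all exons.

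Lengths divisible by 3 were about as frequent among long exons as among shorter ones. Such a length keeps the reading frame only where the exon is fully coding. A length divisible by 3 was found for 480 long exons, 39% (36.3% to 41.7%), beside 40.8% of the shorter ones. Among fully coding exons it was 45.7% (41.2% to 50.3%) and 46.3%. The called long exons had 32.3% (20 of 62, 22% to 44.6%), while the called shorter exons had 46.5%. For called coding exons the shares were 41.7% of 24 long exons (24.5% to 61.2%) and 57.5% of 808 shorter ones. ENAH, EPB41L1, HPS3, SPEN, BRIP1 and IRF3 are among the called coding exons that keep the frame, and KIF27, ANKMY1 and PROSER1 among those that do not.

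The RBFOX element GCATG occurred in the long exons about as often as its reverse complement CATGC. That motif served as a comparison of equal GC content, though its numbers of G and C differ. On the sense strand GCATG was present in 39.1% of the 1115 matched long exons and CATGC in 37.8%, or 0.834 and 0.825 per 1000 bases. In shorter exons the shares were 10.3% and 10.4%, and among long exons the GCATG share rose with length, from 27.8% at 300 to 499 nt to 43.9% at 500 to 999 nt and 67.2% at 1000 nt or more. The 2 motifs overlap where GCATGC occurs. Among the 58 matched called long exons 17 held GCATG (29.3%, 19.2% to 42%), beside 39.6% of the long exons without a call. CATGC was present in 34.5% and 37.9%, and the called exons were shorter, with a median of 433 nt beside 484 nt. IRF3 had 3 GCATG elements, starting at bases 145, 185 and 311 of its 381-nt exon. TMTC2, PREPL, MRPL55 and FOXRED1 had 2 each. ENAH, POLR2G, TIAL1 and EPB41L1 had none inside the exon. Introns, where RBFOX proteins also bind, were not searched, since no hg19 sequence was used here.

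The 5 longest exons were not called. The 6255-nt giant exon of ANK2, which encodes the neuronal part of ankyrin-B, was at 0.0 in the authors' deposited table (p-value 0.36). ALMS1 (6105 nt) was listed at 0.039, DNAJB6 (5735 nt) at 0.0, NACA (5589 nt) at -0.001 and AKAP12 (5042 nt) at -0.028, all at FDR 1 in the authors' deposited table. Near-identical long exons were found for 2 gene pairs in which a member was called. The 418-nt exons of SLC35E2 (now SLC35E2A) and SLC35E2B are 99.8% identical and were called at -0.697 and -0.215 in the authors' deposited table. The 511-nt exons of SAFB and SAFB2, which encode scaffold attachment factors, are 100% identical. The authors' deposited table listed -0.022 for SAFB, without a call, and -0.11 for SAFB2. Reads may be divided between such copies, so these 4 values are uncertain.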

How the data were processed

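The labels describe 4 HEK293T clones, 2 WT and 2 RBFOX2 KO. Per the file headers, the authors deposited the rMATS table of skipped exons made from junction counts; the submitters' processing notes name STAR 2.7.3a and hg19, without saying for which step. The rMATS version and annotation are not given in the sources used here. Positions are those of the deposited table, with 1-based starts; they reach 249153059 on chromosome 1 and were taken to be hg19. Per the file headers, the authors' p-value and FDR test the inclusion difference between 2 sets of libraries. The deposited FDR equals a Benjamini-Hochberg adjustment over the 31408 events (largest gap 1.11e-16). The deposited inclusion difference is treated as a score from -1 to 1, read as first minus second set by the rMATS convention. The effective lengths (other values) were deposited by the authors too. The 6 columns of values per library match no clone by name and were not used, so depth per library is not known here and no count model was run.

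Events were merged to exons by chromosome, strand and both ends. An exon was called at an FDR under 0.05 and an absolute difference of at least 0.1 in any event, with the direction of its called event of lowest p-value. Only the authors' test was used, over the whole table; other comparisons are shares with Wilson 95% intervals, which cover counting error only and treat exons as independent. The clones are separate lines, but the spread between them enters only through the authors' p-values. Exons were matched to GENCODE 29 by gene identifier, exon length and both intron lengths, with no coordinate converted. A current symbol was found for 1058 of the 1081 gene identifiers.

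Exons, gene groups and thresholds were chosen with earlier results of these data known. Named by rule, 1 exon per gene, were the 10 called exons of lowest p-value in each direction, the 5 longest called exons and the called exons of the listed groups, 24 exons in all; other exons were named after their values were seen. Of the called exons, 2 are counted but not reported here singly. Alternatives were FDR limits of 0.01 and 0.1, Bonferroni correction, minimum differences of 0 and 0.2, lengths of at least 250 and 500 nt, 1 exon per gene and an exon-level correction. The tools were matplotlib 3.10.9, scipy 1.17.1, numpy 2.4.6 and pandas 2.3.3 under Python 3.11.15.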

Additional observations from a re-analysis of the deposited data

How the results depend on the processing

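Of 62 called long exons, 20 passed a Bonferroni correction over the table, with a median absolute difference of 0.425 in place of 0.266. That was 1.62% of the long exons, beside 1.68% of all unique exons under the same correction. A limit of 500 nt left 24 called (4.07% of 589 exons). An alternative chosen after seeing the data, fully coding exons alone, also left 24, with a median of 0.221 and 45.7% of lengths divisible by 3 in place of 39%. These limits select fewer exons by construction. Under the other alternatives run, 45 to 91 exons were called, and the first set was higher in 45% to 56% under all of them. At an FDR limit of 0.01, 3.65% of the long exons were called, beside 3.91% of all exons. At a minimum difference of 0.2 the shares were 3.65% and 3.95%. The 91 were 4.89% of 1862 exons of at least 250 nt. Of the 24 exons named by rule, 22 were called at an FDR limit of 0.01 (BRIP1 and LRRC37A2 were not), 19 under Bonferroni correction (also not POP4, PROSER1 and SENP5) and 17 at a minimum difference of 0.2 (not ENAH, PDCD2L, POP4, PROSER1, SENP5, SPEN and TIAL1). These alternatives reuse the deposited differences, so they do not test direction. The labels pair no WT clone with a KO clone, so no paired analysis was made. Leaving out each clone and the junction count model were not run either. The columns of values per library carry no clone name or replicate number and were not used in any step. Depth per exon is not known here, so an exon without a call is not shown to be equal between the sets.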
